A study of Homo sapiens with 6 samples.

Results

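The genes described here encode receptor tyrosine kinases that have been linked to YAP, with their ligands: AXL and its ligand GAS6, MET, the Eph receptors EPHA2, EPHA4, EPHB2 and EPHB4, and the ephrins EFNA1, EFNB1 and EFNB2. They were found in the count table by the Entrez IDs of these symbols, and all 10 were present among 23459 genes. MCF10A is an untransformed human mammary epithelial cell line. All cells were wild type (WT in the labels) and had been transfected with siRNA at 20 nM, which was non-targeting in 3 libraries (siCtrl) and directed at YAP and TAZ in the other 3 (siYAP/TAZ), in medium containing horse serum, insulin, hydrocortisone, cholera toxin and EGF, and RNA was read from the 3′ ends of polyadenylated transcripts. The study asked how JUN and YAP/TAZ act on shared targets, and these libraries address which transcripts depend on YAP and TAZ. Neither the siRNA sequences nor the time after transfection were given in the sources used here. The study's methods speak of biological replicates for its RNA sequencing, while the labels of these libraries name no separate cultures or days, so p-values measure the spread between these libraries.

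AXL is a receptor of the TAM family that is activated by GAS6, a secreted vitamin K-dependent protein. MET is the receptor for hepatocyte growth factor. Eph receptors form the largest family of receptor tyrosine kinases and bind ephrins on neighbouring cells. EphA receptors mainly bind the GPI-anchored A-type ephrins, and EphB receptors bind the transmembrane B-type ephrins. Both partners signal, so that contact between cells can lead to repulsion, adhesion or boundary formation in epithelia. YAP and TAZ are coactivators that lack a DNA-binding domain of their own and reach promoters and enhancers mainly through TEAD factors.

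Among the 10 genes, EPHA2 was lowered by siYAP/TAZ, to 27.95% of its control level. This call did not hold in every fit that left a library out. EFNB2 was lower in each of the 3 pairs of same-numbered libraries but did not pass the test on group alone (adjusted p of 0.188 in edgeR). It passed under 3 of 15 alternative settings, among them the replicate number as a block. With that block 10.1% of all genes were called, beside 1.96% without it. EFNA1, a ligand of EPHA2, was higher in 2 of 3 pairs. AXL, MET, EPHB4 and EFNB1 did not pass the test under any of the 15 alternative settings, nor did EPHB2 and GAS6 under the 14 that could test them. AXL and GAS6 had lower means in siYAP/TAZ.

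EPHA2 and EFNB2 were the members that passed the test as lower with the replicate block, so the 250 bases upstream of their RefSeq transcript starts are shown. Capitals mark the only match in either sequence to GGAATG, the core of the TEAD motif, or to TGANTCA, the AP-1 motif, on either strand. The EPHA2 sequence is chr1:16156070-16156319 and the EFNB2 sequence chr13:106535663-106535912, both from the minus strand of GRCh38.p14.
EPHA2: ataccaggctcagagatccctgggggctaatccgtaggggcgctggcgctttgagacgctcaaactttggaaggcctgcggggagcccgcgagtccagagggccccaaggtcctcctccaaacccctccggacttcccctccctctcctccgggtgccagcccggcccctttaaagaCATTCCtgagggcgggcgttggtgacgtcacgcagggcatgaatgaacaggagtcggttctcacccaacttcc
EFNB2: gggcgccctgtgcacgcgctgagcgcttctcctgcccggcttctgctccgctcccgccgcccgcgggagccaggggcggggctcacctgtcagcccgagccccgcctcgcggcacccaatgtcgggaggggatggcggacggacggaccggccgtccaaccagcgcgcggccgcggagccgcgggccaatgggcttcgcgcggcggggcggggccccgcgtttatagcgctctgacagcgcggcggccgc
The match in EPHA2 lies on the opposite strand and begins 73 bases before the start. All 10 genes had an entry in the RefSeq promoter table, and EPHA2 was the only member with a GGAATG match. GGAATG was found in 11.9% of 27305 upstream sequences of this length and TGANTCA in 6.6%, so 1 and 0 of 10 are near those shares. A match is a description of the letters and does not show binding, and enhancers lie outside these windows.

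The 6 libraries held 3175149 to 4317286 counts, and 3 counts, the limit that a count of 0 allows, correspond to 0.677 to 0.987 CPM (counts relative to the library total after TMM scaling). YAP1 was at 188.7 to 210.3 CPM across siCtrl replicates and 111.8 to 118 CPM in siYAP/TAZ, and WWTR1, which encodes TAZ, at 101.8 to 108.8 and 59.8 to 70.5 CPM, so 57.4% and 61.85% of the transcripts remained. Groups were taken from the description field, whose entries serve as column names. For siCtrl replicate 2 and siYAP/TAZ replicate 2 the title and the genotype entry name the opposite group, while YAP1 and WWTR1 in both libraries were at the levels of the described group. The library described as siCtrl replicate 2 also stood apart: on the first principal component (48.4% of the variance) it lay at 7.15, near siYAP/TAZ replicate 1 at 9.77, and the other siCtrl libraries lay at -42.6 and -34.9. For the members, values with and without it are given. All 9 basal epithelial markers, among them KRT5 and TP63, exceeded 10 CPM on average. Of the 5 fibroblast markers, COL1A2 and COL3A1 had 0 counts throughout, and FAP was at 18.5 to 55.8 CPM across siCtrl replicates and 3.31 to 13.05 CPM in siYAP/TAZ. The summed level of that list was 20.4 to 59.05 CPM across siCtrl replicates and 4.30 to 16.9 CPM in siYAP/TAZ, that of the 3 endothelial markers 2.01 to 3.39 and 4.76 to 11.2 CPM, and that of the 3 leukocyte markers 1.44 to 4.94 and 1.36 to 3.97 CPM. The part of these in the results was not tested.

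EPHA2 (Entrez 1969; GRCh37 chromosome 1, 16450832 to 16482564, minus strand, 17 exons in the canonical transcript) is an EphA receptor of epithelial cells. It had 203, 89 and 150 counts in siCtrl replicates 1, 2 and 3 and 69, 34 and 28 counts in siYAP/TAZ. In CPM these were 58.3, 27.5 and 37.7 against 15.6, 11.2 and 7.62. The lowest control library, siCtrl replicate 2, was thus above the highest siYAP/TAZ library, and their counting intervals did not meet, at 22.06 to 33.8 and 12.2 to 19.8 CPM (95% exact Clopper-Pearson, counting error only). Groups did not overlap for 22.1% of all genes tested, and for 11.1% with siYAP/TAZ as the lower group. The means were 41.15 ± 15.7 and 11.5 ± 4.02 CPM (SD, n = 3), a 3.58-fold difference. On the log2 scale EPHA2 changed by -1.82 (SE 0.33, 95% interval -2.57 to -1.08), and the quasi-likelihood test of edgeR gave an adjusted p of 0.0294 (Benjamini-Hochberg, over 12510 genes). In bulk RNA, fewer cells of a kind and less RNA in each cell cannot be told apart. EPHA2 was the 1 of 9 tested members past the threshold, while 1.96% of all genes tested passed, 1.22% of them as lower and 0.743% as higher. By the F statistic it ranked 129 of 12510 genes, and 25 by the size of the fall.

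The fall in EPHA2 was seen within each pair of libraries, with log2 ratios of -1.90, -1.29 and -2.31 for replicates 1, 2 and 3. Because the groups did not overlap for EPHA2, any pairing of the libraries would show a fall in each pair. With the replicate number as a block its log2 fold change was -1.84 and the adjusted p in edgeR 0.000921. Without siCtrl replicate 2 it was -2.04, with an adjusted p of 0.00231. The call was lost when any of 4 libraries was left out: the adjusted p in edgeR was 0.0767 and 0.118 when siCtrl replicates 1 and 3, and 0.104 and 0.153 when siYAP/TAZ replicates 2 and 3, were each omitted, with log2 fold changes of -1.49 to -1.89. In these 4 fits, in the same order, 92, 16, 71 and 18 of all genes tested passed, beside 245 with all libraries. The unadjusted p of EPHA2 in edgeR was 0.00094 to 0.0018 there. Grouped by the titles the log2 fold change of EPHA2 was -1.10 with an adjusted p of 0.898. The direction was lower under all 15 alternatives, in a range of -2.14 to -1.10, and the adjusted p ranged from 1.9e-05 to 0.898. The antisense gene EPHA2-AS1 overlaps 894 bases of EPHA2 and was not analysed here.

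**Figure D1:**
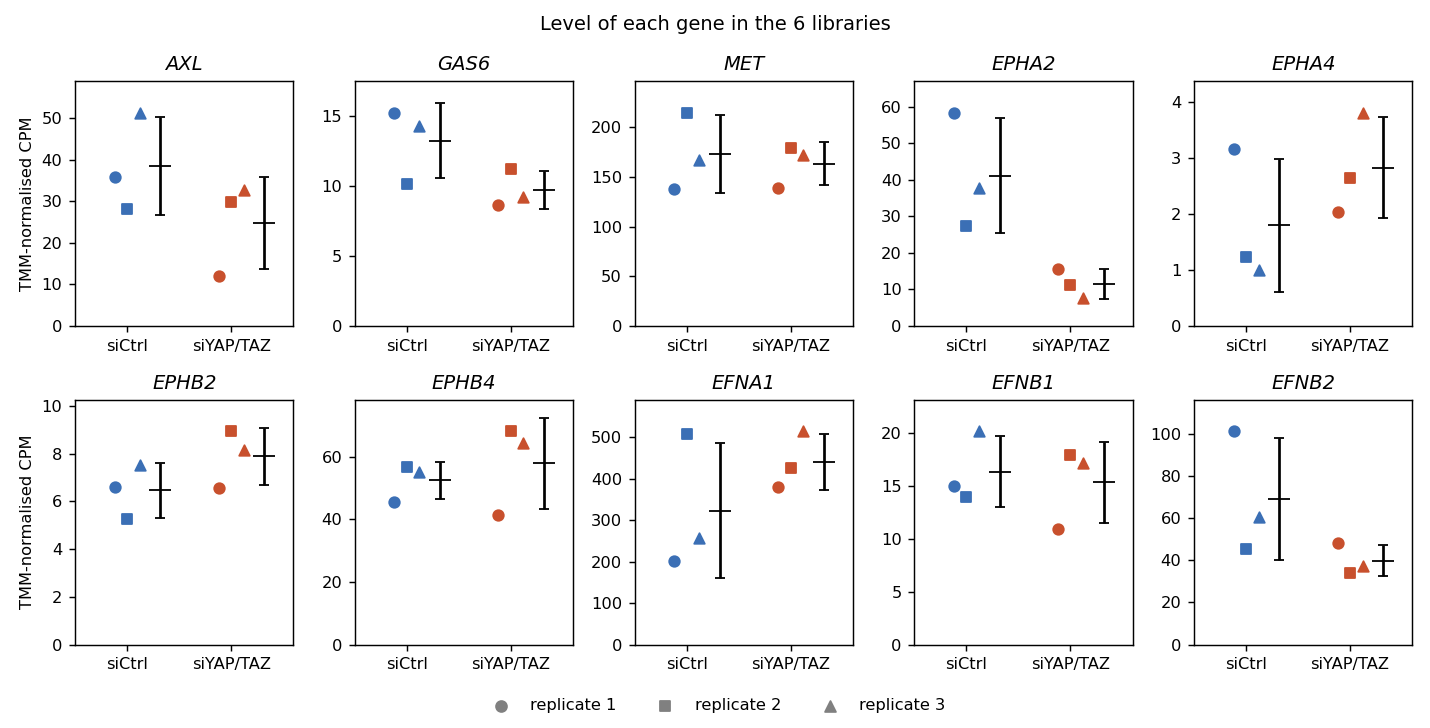
TMM-normalised CPM of the 10 genes, 1 panel each with its own axis from 0, in siCtrl (blue) and siYAP/TAZ (orange) libraries; symbols give the replicate number, and the black bar is the mean with its SD (n = 3). The groups separate in the EPHA2 panel alone, where siCtrl libraries were at 27.5 to 58.3 and siYAP/TAZ libraries at 7.62 to 15.6.

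EPHA4 (Entrez 2043; chromosome 2, 222282747 to 222438922, minus strand), a receptor that binds ephrins of both types, was close to the limit of detection. It had 11, 4 and 4 counts across siCtrl replicates and 9, 8 and 14 counts in siYAP/TAZ, did not pass the low-count filter and was left out of the main test. The counting intervals of 1.58 to 5.65 CPM in siCtrl replicate 1 and 2.08 to 6.39 CPM in siYAP/TAZ replicate 3 overlapped. Without the filter its log2 fold change was 0.64 with an adjusted p of 0.683 in edgeR, and without siCtrl replicate 2, where it passed the filter, 0.46 with 0.651.

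EPHB2 (Entrez 2048; chromosome 1, 23037332 to 23247993, plus strand) and EPHB4 (Entrez 2050; chromosome 7, 100400187 to 100425145, minus strand) are receptors for B-type ephrins. EPHB2 had 6.61, 5.25 and 7.54 CPM across siCtrl replicates and 6.57, 8.93 and 8.16 CPM in siYAP/TAZ, from 17 to 30 counts per library. EPHB4 had 45.7, 56.8 and 55.03 CPM across siCtrl replicates and 41.25, 68.1 and 64.5 CPM in siYAP/TAZ. For both genes siYAP/TAZ replicates 2 and 3 lay above every siCtrl library and replicate 1 lay within or below the controls. The log2 fold changes were 0.27 (95% interval -0.37 to 0.90, adjusted p of 0.671 in edgeR) for EPHB2 and 0.14 (-0.32 to 0.59, adjusted p of 0.775) for EPHB4. Without siCtrl replicate 2 the log2 fold changes were 0.14 and 0.20. A fall of the size seen for EPHA2 lay outside both intervals. EPHB4 shares 704 bases with SLC12A9 on the other strand, which had 17 to 45 counts, so some EPHB4 reads are uncertain.

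Of the ligands, EFNB2 (Entrez 1948; chromosome 13, 107142093 to 107188010, minus strand) encodes ephrin-B2, a transmembrane ligand of EphB receptors. It was at 101.4, 45.4 and 60.6 CPM across siCtrl replicates and at 48.3, 34.05 and 37.5 CPM in siYAP/TAZ. Only siYAP/TAZ replicate 1 reached into the control range, where it exceeded siCtrl replicate 2. The means were 69.1 ± 29 and 39.95 ± 7.42 CPM (SD, n = 3), and the log2 fold change of -0.78 (SE 0.28, 95% interval -1.41 to -0.16) did not pass the threshold, with an adjusted p of 0.188 in edgeR. A long non-coding RNA on the opposite strand (ENSG00000284966) overlaps 30484 bases of EFNB2, and another on the same strand (ENSG00000274204) overlaps 668 bases. Neither was analysed here, so reads from them cannot be told apart.

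The log2 ratios of EFNB2 within pairs were -1.07, -0.41 and -0.69. With the replicate number as a block, EFNB2 fell by 0.75 on the log2 scale, with an adjusted p of 0.0132 in edgeR. It also passed without siCtrl replicate 2 (-1.005, adjusted p of 0.0173), but without siCtrl replicate 1, its highest library, it was -0.40 with 0.471. Over the alternatives the adjusted p ranged from 0.0132 to 0.898. The 2 members called lower with the block, EPHA2 and EFNB2, stand beside 10.1% of all genes called with the block, 5.44% as lower and 4.66% as higher.

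EFNA1 (Entrez 1942; chromosome 1, 155100352 to 155107375, plus strand) encodes ephrin-A1, a GPI-anchored ligand of EPHA2. It was at 201.9, 508.5 and 257.8 CPM across siCtrl replicates and at 379, 426.1 and 513.5 CPM in siYAP/TAZ. The library described as siCtrl replicate 2 thus lay among the siYAP/TAZ libraries, and the other 2 controls lay below all of them. The log2 fold change was 0.45 (SE 0.30, 95% interval -0.23 to 1.12) with an adjusted p of 0.481 in edgeR, and 0.55 with 0.125 with the block. Without siCtrl replicate 2 it was 0.94 with an adjusted p of 0.00685, while it was 0.20 with 0.807 without siCtrl replicate 1 and 0.31 with 0.784 without siCtrl replicate 3. In all, 3 of 10 members, EPHA2, EFNB2 and EFNA1, passed when siCtrl replicate 2 was left out. There 12.3% of all genes were called, 6.08% as higher and 6.22% as lower.

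EFNB1 (Entrez 1947; chromosome X, 68048864 to 68062003, plus strand), the ephrin-B1 gene, had 14.9, 13.9 and 20.1 CPM across siCtrl replicates and 10.9, 17.9 and 17.1 CPM in siYAP/TAZ. The groups overlapped, and the log2 fold change was -0.11 (95% interval -0.70 to 0.48, adjusted p of 0.867 in edgeR). EFNB1 was lower in replicate pairs 1 and 3 and higher in pair 2, and at -0.21 without siCtrl replicate 2.

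AXL (Entrez 558; chromosome 19, 41725128 to 41767671, plus strand) was at 35.9, 28.1 and 51.3 CPM across siCtrl replicates and at 12.01, 29.75 and 32.6 CPM in siYAP/TAZ. The lowest library was siYAP/TAZ replicate 1, while siYAP/TAZ replicates 2 and 3 lay within the control range. The means were 38.4 ± 11.8 and 24.8 ± 11.2 CPM (SD, n = 3). The log2 fold change of -0.65 (SE 0.35, 95% interval -1.44 to 0.14) had an adjusted p of 0.370 in edgeR and 0.118 with the replicate block. Within pairs it was -1.58, 0.083 and -0.65. Leaving out siYAP/TAZ replicate 1 moved it to -0.30, siCtrl replicate 3 to -0.38, siCtrl replicate 2 to -0.84 with an adjusted p of 0.137, and leaving out both libraries with disagreeing labels to -0.99 with an adjusted p of 0.123. Its interval with all libraries reaches from a fall of over 1 log2 unit to a small rise. A long non-coding RNA on the opposite strand (ENSG00000269652) overlaps 626 bases of AXL and was not analysed here.

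GAS6 (Entrez 2621; chromosome 13, 114523522 to 114567049, minus strand) was measured at 15.2, 10.2 and 14.3 CPM across siCtrl replicates and 8.61, 11.2 and 9.25 CPM in siYAP/TAZ. As for AXL, replicate pairs 1 and 3 were lower and pair 2 was not, with log2 ratios of -0.82, 0.14 and -0.63. The log2 fold change was -0.46 (SE 0.26, 95% interval -1.03 to 0.11) with an adjusted p of 0.381 in edgeR, and -0.61 with 0.145 without siCtrl replicate 2. These reads are uncertain: GAS6-AS1, on the opposite strand across 25196 bases of the gene, had 51, 28 and 53 counts across siCtrl replicates and 30, 29 and 27 in siYAP/TAZ, beside 53, 33 and 57 and 38, 34 and 34 for GAS6. Whether strand was used in counting is not given in the sources used here, and the transcripts cannot be told apart.

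MET (Entrez 4233; chromosome 7, 116312250 to 116438431, plus strand) was at 137.3, 214.2 and 167.4 CPM across siCtrl replicates and at 138.3, 179.2 and 172.4 CPM in siYAP/TAZ. All siYAP/TAZ values lay inside the control range. The means were 172.9 ± 38.7 and 163.3 ± 21.9 CPM (SD, n = 3), and the log2 fold change estimated by edgeR was -0.084 (SE 0.18), with 0.851 as its adjusted p. Its 95% interval of -0.49 to 0.32 leaves out a change of the size of EPHA2. The sign turned without siCtrl replicate 2, to 0.10.

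**Figure D2:**
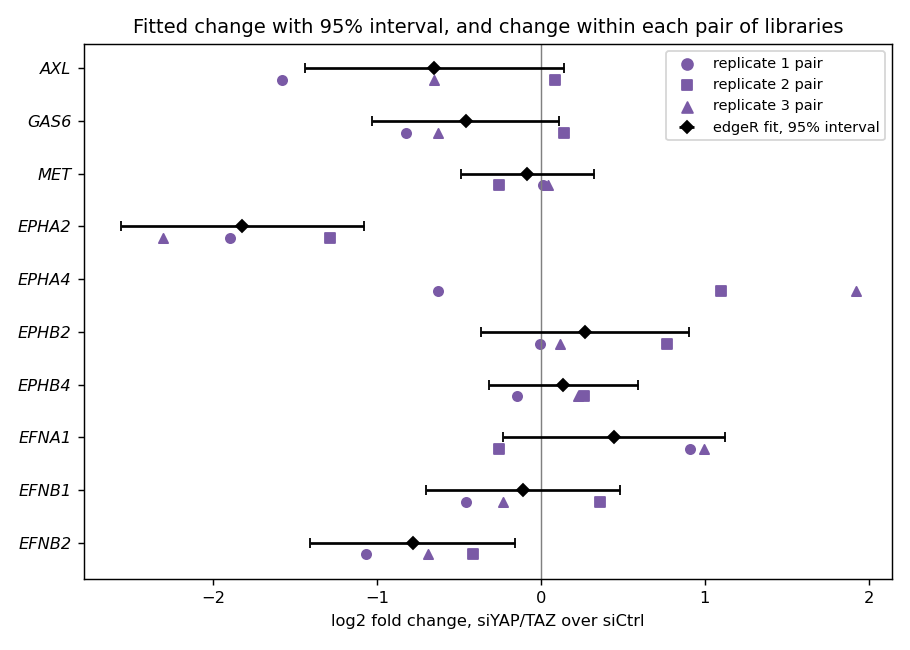
Log2 fold change of siYAP/TAZ over siCtrl for each gene: black diamonds are the edgeR estimates with 95% intervals (none for EPHA4, which was not tested), and purple symbols are the log2 CPM ratios within each pair of libraries that share a replicate number. All 3 pairs lie below 0 for EPHA2 and EFNB2, and the replicate 2 pair differs in sign from the others for AXL, GAS6, EFNA1, EFNB1 and MET.

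Counts of a ligand and its receptor were also divided within each library, which needs no scaling between libraries. The ratio depends on both genes and is compared only between groups. EFNA1 over EPHA2 was 3.46, 18.5 and 6.84 across siCtrl replicates and 24.2, 37.9 and 67.4 in siYAP/TAZ. Every siYAP/TAZ library lay above every siCtrl library, and the highest control was siCtrl replicate 2. The groups already separate for EPHA2 alone and overlap for EFNA1, so this separation is not a result apart from that of EPHA2. EFNB2 over EPHB4 was 2.22, 0.799 and 1.10 across siCtrl replicates and 1.17, 0.50 and 0.582 in siYAP/TAZ, lower in each pair but with overlapping groups. GAS6 over AXL was 0.424, 0.363 and 0.279 across siCtrl replicates and 0.717, 0.378 and 0.283 in siYAP/TAZ, so only the replicate 1 pair departed. The ratios were not tested.

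**Figure D3:**
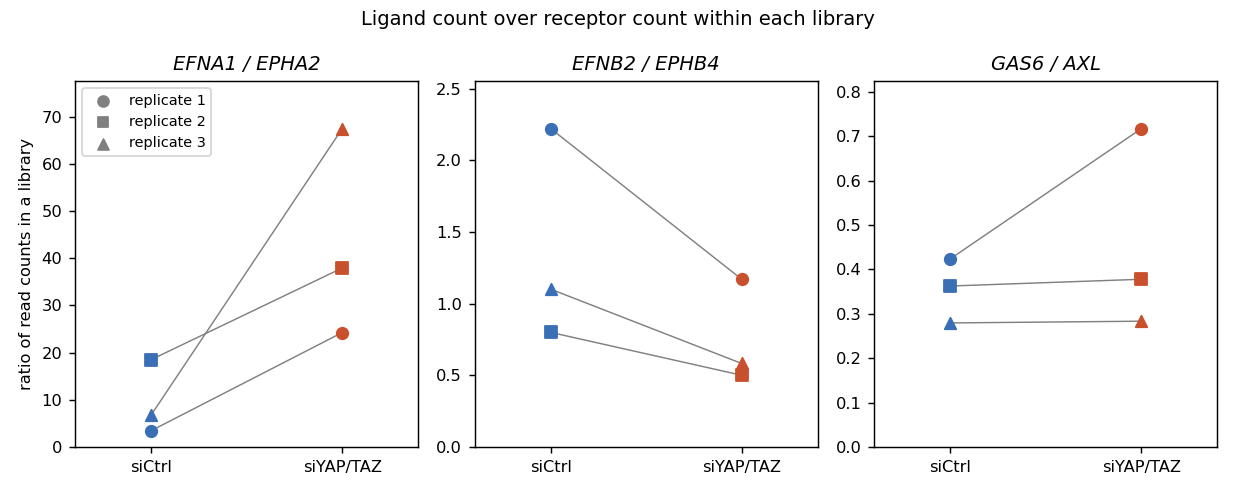
Read counts of a ligand divided by those of its receptor in the same library, for EFNA1 over EPHA2, EFNB2 over EPHB4 and GAS6 over AXL; each panel has its own axis from 0, and grey lines join libraries that share a replicate number. EFNA1 over EPHA2 was at most 18.5 across siCtrl replicates and at least 24.2 in siYAP/TAZ, where EPHA2 alone also separates the groups and EFNA1 alone does not.

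The relatives of these genes and their adaptors were taken from lists of 51 further genes, of which 39 were tested. Of these 39, 0 passed the threshold in edgeR, where 1.96% of all genes tested did. An unadjusted p under 0.05 was found for 4, beside 17.7% of all genes tested, and 1, VAV3, passed in DESeq2. With the replicate block 0 were called lower and 2 higher, VAV3 and PIK3R1, where 5.44% of all genes were called lower and 4.66% higher. The median log2 fold change of the 39 was 0.14, with 14 lower and 25 higher in sign. It was -0.00093 for all genes tested, with 6270 lower and 6240 higher, and -0.11 for the 9 tested members. Over a list of 58 receptor tyrosine kinases the median was 0.14 for 35 tested, and EPHA2 was the 1 that was called.

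Of the TAM family, 2 of 3 further genes were tested. PROS1, the gene of protein S, another TAM ligand, had 16.1 to 18.7 CPM across siCtrl replicates and 16.9 to 17.7 CPM in siYAP/TAZ, and its log2 fold change was -0.0075 (95% interval -0.43 to 0.42, adjusted p of 0.990 in edgeR). The TAM receptor TYRO3 was at 2.76 to 6.48 and 4.08 to 7.03 CPM, and its log2 fold change of 0.18 had an adjusted p of 0.847.

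Among the 10 other Eph receptors 6 were tested, 1 lower and 5 higher in sign, with a median of 0.27. EPHA5, which like EPHA2 binds A-type ephrins, was at 124.6 to 148.1 CPM across siCtrl replicates and 130.8 to 152.7 CPM in siYAP/TAZ. Its log2 fold change was 0.068 (95% interval -0.23 to 0.36, adjusted p of 0.833 in edgeR). EPHA6 was at 5.25 to 8.04 and 5.17 to 11.6 CPM, with 0.35 and 0.665. Neither interval reached the fall in EPHA2.

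The 3 tested ephrins of 5 were all higher in sign and none passed. EFNA5, a further A-type ephrin, was at 298.4, 381.1 and 318.1 CPM across siCtrl replicates and at 441.1, 468.7 and 368.2 CPM in siYAP/TAZ, which edgeR estimated as 0.36 on the log2 scale (SE 0.15), with an adjusted p of 0.266, or 0.0755 with the block and 0.0571 without siCtrl replicate 2. EFNA3 was at 2.59 to 5.25 and 4.99 to 8.93 CPM, with 0.79 (SE 0.37, adjusted p of 0.302). Of the genes around MET, HGF had 0 to 2 counts in every library, so the transcript of the MET ligand was at or under the floor in these cells. HGF protein, from the cells or from the medium, was not measured. ST14, a membrane protease that activates HGF, was at 35.6 to 51.8 and 37.2 to 42.6 CPM, and SPINT2, which inhibits HGF-activating proteases, at 109.7 to 136.4 and 96.3 to 118 CPM. Their log2 fold changes of -0.21 and -0.17 had adjusted p-values of 0.596 and 0.571.

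Of 25 adaptors and effectors 24 were tested. VAV3, which acts downstream of Eph receptors and was singled out after its values were seen, was at 14.1, 37.03 and 18.9 CPM across siCtrl replicates and 48.96, 70.1 and 60.9 CPM in siYAP/TAZ. The groups did not overlap, with siCtrl replicate 2 the highest control, as for 11% of all genes tested with siYAP/TAZ as the higher group. The log2 fold change was 1.37 (SE 0.31). Its adjusted p in edgeR was 0.0617, 0.00148 with the block and 0.00103 without siCtrl replicate 2. Within pairs it was 1.80, 0.92 and 1.69. PIK3R1, a regulatory subunit of PI3-kinase that docks on activated receptors, was at 217.4, 401.8 and 275.2 CPM across siCtrl replicates and 341.6, 463.1 and 505.6 CPM in siYAP/TAZ. Its log2 fold change was 0.55 (SE 0.23), with adjusted p-values of 0.263, 0.0241 with the block and 0.0177 without siCtrl replicate 2. Without that library NCK1, an adaptor that was also chosen after its values were seen, passed as well (0.60, adjusted p of 0.0301). GRB2, the adaptor shared by most receptor tyrosine kinases, was at 143.2 to 162.6 and 156.6 to 168.1 CPM, with 0.093 and 0.733.

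**Figure D4:**
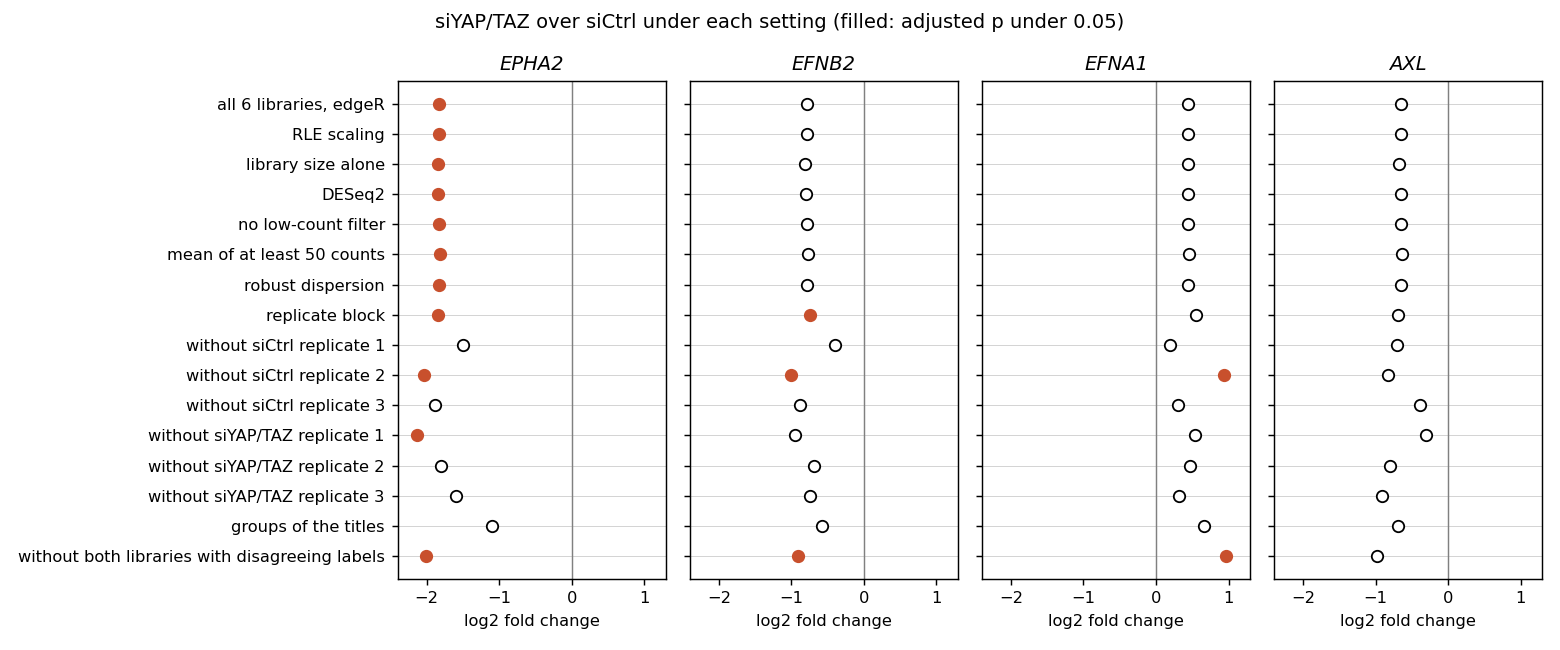
Log2 fold change of EPHA2, EFNB2, EFNA1 and AXL (horizontal axes) under each setting (rows); filled points passed an adjusted p of 0.05. EPHA2 lies between -2.14 and -1.10 in every row, EFNB2 and EFNA1 are filled where siCtrl replicate 2 was left out, and AXL is filled in none.

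Across the other receptor tyrosine kinases of the list, 3 were called higher with the replicate block and 0 lower, where 4.66% of all genes were called higher: FGFR3 (log2 fold change 3.54, adjusted p of 0.00324 in edgeR, 0 to 16 counts across siCtrl replicates and 27 to 92 in siYAP/TAZ), DDR1 (0.51, 0.0432) and ALK (0.81, 0.0425). They were named after their values were seen. With all libraries and without the block none of them passed, with adjusted p-values of 0.0981 to 0.179 in edgeR. Without siCtrl replicate 2, 6 of 39 kinases of the list passed, where 12.3% of all genes did: EPHA2 and ROR1 (-0.85, adjusted p of 0.0386 in edgeR) as lower, and FGFR3, DDR1, ALK and INSR (0.84, adjusted p of 0.0222) as higher.

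The pattern of EPHA2 over the 6 libraries was compared with that of every gene tested, by the mean absolute difference of log2 CPM after each gene was centred on its own mean. The 5 nearest genes were NAV3 (0.20), LETM2 (0.21), DLC1 (0.23), BUB1 (0.24) and CALHM4 (0.25), and the median over all genes tested was 0.90. DLC1 was at 56.6, 31.2 and 50.01 CPM across siCtrl replicates and 23.8, 17.9 and 12.8 CPM in siYAP/TAZ. BUB1, a kinase of the mitotic checkpoint, was at 80.7, 63.3 and 80.9 CPM against 40.6, 27.4 and 22.3 CPM. As for EPHA2, siCtrl replicate 2 was the lowest control and siYAP/TAZ replicate 1 the highest siYAP/TAZ library for all 5. These genes were picked for that likeness, so their values are a description.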

How the data were processed

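Per the labels, the 6 libraries of MCF10A RNA were prepared with a QuantSeq 3′ mRNA-Seq kit (FWD). The authors deposited raw read counts per Entrez gene, not normalised. The submitters' processing notes name cutadapt 4.2, Bowtie2 2.3.5.1 and hg19. The gene annotation, the counter and the use of strand for these libraries are not given in the sources used here. The table held 23459 genes, 0 unnamed rows and 0 unused value columns. Symbols came from RefSeq (GRCh38.p14) and matched 23308 IDs. Genes were placed on GRCh37 (hg19) with the lifted GENCODE 44 annotation.

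In R 4.3.3, edgeR 4.0.16 was used for a quasi-likelihood test on group alone, after its default low-count filter (12510 genes, 99.55% of counts) and TMM scaling. P-values were Benjamini-Hochberg adjusted over all genes tested, with 0.05 as the threshold. Standard errors and 95% intervals were derived from the fold change and its F statistic. The test was also run on counts simulated with a single fixed dispersion and without outlying or paired libraries. That run does not show how the test behaves on the libraries here. A prior count of 2 was used for log2 CPM, and reads without molecular identifiers make every counting interval and the floor of 3 counts a measure of counting error only. Within groups, chi-square per degree of freedom between libraries was 5.37 to 17.4, so no library repeated another.

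All 10 members are named, then of 5 lists of related genes each gene past the threshold and the 2 most abundant others, and the 5 genes most like the member with the largest F. The members and lists were chosen with earlier results of these data known. Same-numbered libraries deviated together from their group means (r across 12510 genes of 0.42, 0.35 and 0.13 for replicates 1, 2 and 3, each over 0.1). The numbers of the description field were therefore taken to pair the libraries, although the titles number 4 of the 6 libraries otherwise. Correlations between differently numbered libraries are not given here, and the pairing was judged on the same counts that the block tests. Calls that rest on the block depend on this choice, and the blocked value is given where it changes a call. The 15 alternatives were the block, each of the libraries left out in turn, the groups of the titles, both libraries with disagreeing labels left out, another tool (DESeq2 1.42.0), scaling by RLE or by library size, omitting the low-count filter or replacing it by a mean of 50 counts, and a robust dispersion estimate.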

Additional observations from a re-analysis of the deposited data

How the results depend on the processing

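Over the 9 tested members and the 15 alternatives, 125 of 133 fold changes kept their direction and 8 turned. Members past the threshold numbered 1 with all libraries, 2 with the replicate block, 3 without both libraries with disagreeing labels, 0 with the groups of the titles (1 at an unadjusted p under 0.05 in edgeR), and 0 to 3 with 1 library left out. The count was 0 without siCtrl replicate 1 or 3 or siYAP/TAZ replicate 2 or 3, with 1, 2, 1 and 1 members at an unadjusted p under 0.05, and 3 without siCtrl replicate 2. Other pathway genes past the threshold numbered 0 with all libraries, 1 in DESeq2, 1 without the low-count filter, 2 with the block, 3 without both libraries with disagreeing labels and 0 to 3 with 1 library left out. Over all genes tested the count was 245, and it was 587 in DESeq2, 556 without the filter, 1263 with the block, 0 with the groups of the titles (464 at an unadjusted p under 0.05), 1183 without both libraries with disagreeing labels and 16 to 1579 with 1 library left out. The pairing changed the calls of EFNB2, VAV3, PIK3R1 and CALHM4 (adjusted p of 0.0924 and 0.0448 with the block), besides the receptor kinases FGFR3, DDR1 and ALK. It changed no other call among the named members, genes of the lists of related genes and genes most like EPHA2. The cause of these differences was not tested. Some genes near 0 changed sign. With 1 library left out, MET ranged from -0.22 to 0.10, EFNB1 from -0.23 to 0.095, PROS1 from -0.065 to 0.044, TYRO3 from -0.12 to 0.42 and EPHA6 from -0.041 to 0.59. With the groups of the titles, MET was at 0.12, EPHB2 at -0.20, EPHB4 at -0.055, PROS1 at 0.031 and GRB2 at -0.033. Without both libraries with disagreeing labels MET was at 0.030 and PROS1 at 0.022, and with a mean of at least 50 counts PROS1 was at 0.0078. EPHA2, EFNB2, EFNA1, AXL and GAS6 kept their direction throughout. EPHB2 and GAS6 rest on 17 to 57 counts per library and were left out by the mean of at least 50 counts.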
